A study of Mus musculus with 3 samples.

Results

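Narrow binding sites of AGO2 inside genes were taken from the peak list that the caller Pyicoclip gave for 3 HITS-CLIP libraries of mouse P19 cells. The members were chosen by their measured width and place, so neither is a result here. A peak was a member if it was at most 30 nt wide and its midpoint lay inside at least 1 RefSeq gene span, on either strand. This rule kept 678 of the 2068 Pyicoclip peaks. Of the others, 793 lay in genes and were over 30 nt wide, 398 were narrow and lay outside genes, and 199 were wider and lay outside genes. P19 is an embryonal carcinoma line, a pluripotent cell type grown in culture. The libraries form 1 group, made with the AGO2 antibody clone 2D4, and the labels name no treatment, genotype or control library. The peak lists cover all 3 libraries together, with no value per library and no spread between libraries.

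AGO2 is the Argonaute protein that carries a mature microRNA and pairs it with target RNAs. A microRNA is cut out of a hairpin in 2 steps, and either arm of the hairpin can be loaded. Bases 2 to 8 of the mature microRNA, the seed, guide most of the pairing. In mRNAs the sites that AGO2 occupies through a microRNA are known to lie mostly towards the 3′ end of the transcript, in the sense strand.

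Each peak has a deposited score, the authors' own value with no stated unit, and no score below 10 is in the list. Among the members the scores ran from 10 to 26 with a median of 11, and 206 of 678 stood at the lowest value. Wider in-gene peaks had a median of 13 and reached 229. Member widths ran from 18 to 30 nt with a median of 25. At the limit of the rule, the 25 members of 30 nt had a median score of 12 and were led by Tcf20 with 25, Tafa1 with 24 and Mir302a with 20. The 19 in-gene peaks of 31 nt, just outside it, had a median of 14 and were led by Fcgbp with 29, Mir181b-2 with 24 and Mir183 with 24. Members were found on each autosome and on X, from 20 on chromosome 13 to 50 on chromosome 2. Strand was given for 657 of them, 48.1% on the minus strand (95% Wilson interval 44.3 to 51.9). All intervals cover counting error only, and peaks of the 4 lists come from the same libraries.

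MicroRNA genes held 37 members at 34 loci. They are shown first because mature microRNAs are known AGO2 cargo, with ends that can be read to the base where a mature sequence was matched. Of 1228 microRNA genes, 2.85% held a narrow peak. Mature sequences of RefSeq on GRCm38.p6, whose coordinates are those of mm10, were matched to 31 of the 37 peaks. The largest group shared the seed AUUGCAC, that of the miR-25, miR-92 and miR-363 family. Its 5 peaks are written below over the whole peak, 5′ to 3′, with the seed in capitals.
Mir92-1, chr14:115044474-115044500, plus strand, score 20: gguAUUGCACuugucccggccuguuga
Mir92b, chr3:89227124-89227152, minus strand, score 19: gccaauAUUGCACucgucccggccuccgg
Mir92-2, chrX:52741849-52741876, minus strand, score 16: aguAUUGCACuugucccggccugaggaa
Mir25, chr5:138165331-138165355, minus strand, score 15: ggcAUUGCACuugucucggucugac
Mir363, chrX:52741695-52741720, minus strand, score 14: aaaAUUGCACgguauccaucuguaaa
All 5 are 3p arms. Mir92-1 and Mir92-2 encode the same mature miR-92a-3p, and the reference bases beyond its ends, printed above, differ between the 2 loci. Reads of the mature sequence alone match both, so which locus gave them is not certain.

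The microRNA clusters typical of pluripotent cells formed the next group. On chromosome 3 the miR-302 cluster held 4 members, 2 of them in Mir302a. The 5p arm of Mir302a scored 20, and the peak at chr3:127545537-127545566, further 3′ in the same gene, scored 15. Mir302b scored 13 and Mir302d scored 12. Their 3p arms share the seed AAGUGCU. On chromosome 7 the miR-290 cluster held Mir292 with 18 and Mir293 with 10. The Mir292 peak also lay in the span of Mir292b, and no mature sequence was matched to it. The peaks of Mir302a (5p), Mir302b and Mir293 and the mature miR-302d-3p read as follows, with the seed in capitals.
Mir302a, chr3:127545499-127545528, plus strand: ccaCUUAAACgugguuguacuugcuuuaga
Mir302b, chr3:127545274-127545299, plus strand: guAAGUGCUuccauguuuuaguagaa
Mir302d, mature miR-302d-3p alone: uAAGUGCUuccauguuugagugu
Mir293, chr7:3220388-3220414, plus strand: gaaGUGCCGCagaguuuguaguguugc
The 4 peaks of the miR-302 cluster lay on the strand of Gm51018, a long non-coding gene, and opposite to Larp7, which encodes a 7SK-binding protein and spans the same region on the minus strand. Their strand relative to a gene thus depends on which of these genes is taken.

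The let-7 family, which is known to restrain pluripotency, appeared with its neighbours. Mir99a and Mirlet7c-1 on chromosome 16 scored 11 and 12, and Mir99b and Mirlet7e on chromosome 17 scored 10 and 11. The let-7 peaks share the seed GAGGUAG, and the miR-99 peaks share ACCCGUA, as printed here with the seed in capitals.
Mirlet7c-1, chr16:77599670-77599697, plus strand: guuGAGGUAGuagguuguaugguuuaga
Mirlet7e, chr17:17830364-17830393, plus strand: gcuGAGGUAGgagguuguauaguugaggaa
Mir99a, chr16:77598939-77598966, plus strand: aaACCCGUAgauccgaucuuguggugaa
Mir99b, mature miR-99b-5p alone: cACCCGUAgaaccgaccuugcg
Mir34b and Mir34c, known as targets of p53, lay on the minus strand of chromosome 9 within the span of Hoatz and scored 11 and 12. The highest microRNA score was 21, at Mir296, and its neighbour Mir298 scored 15. Mir10b, which lies among the Hoxd genes, scored 17, Mir151 scored 16, Mir22 and Mir582 scored 14, and Mir186, Mir423 and Mir744 reached 13. Mir21a, Mir26b, Mir181c and Mir17 followed with 12 each. Mir31, Mir421, Mir541, Mir101a and Mir467c scored 10 or 11, as did Mir34b and several members named above.

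Each of the 31 peaks with a mature sequence held that mature microRNA from end to end and ran past it on both sides. The overhang at the 5′ end was 1 to 5 nt with a median of 2, and it was exactly 2 nt in 20 of the 31. At the 3′ end it was 1 to 6 nt with a median of 4. The 3′ overhang was the longer in 21 peaks, equal in 6 and the shorter in 4, among them miR-92b-3p with 5 nt before and 2 nt after. By arm, 17 were 5p and 14 were 3p. Both arms of Mir92b were present, with 19 for 3p and 12 for 5p, and both of Mir423, with 13 for 3p and 11 for 5p. By width, 35 of the 37 microRNA members were 26 to 30 nt wide, as were 266 of all 678 members. The other 2 were 25 nt wide, and none of the 316 narrower members lay in a microRNA gene.

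**Figure D1:**
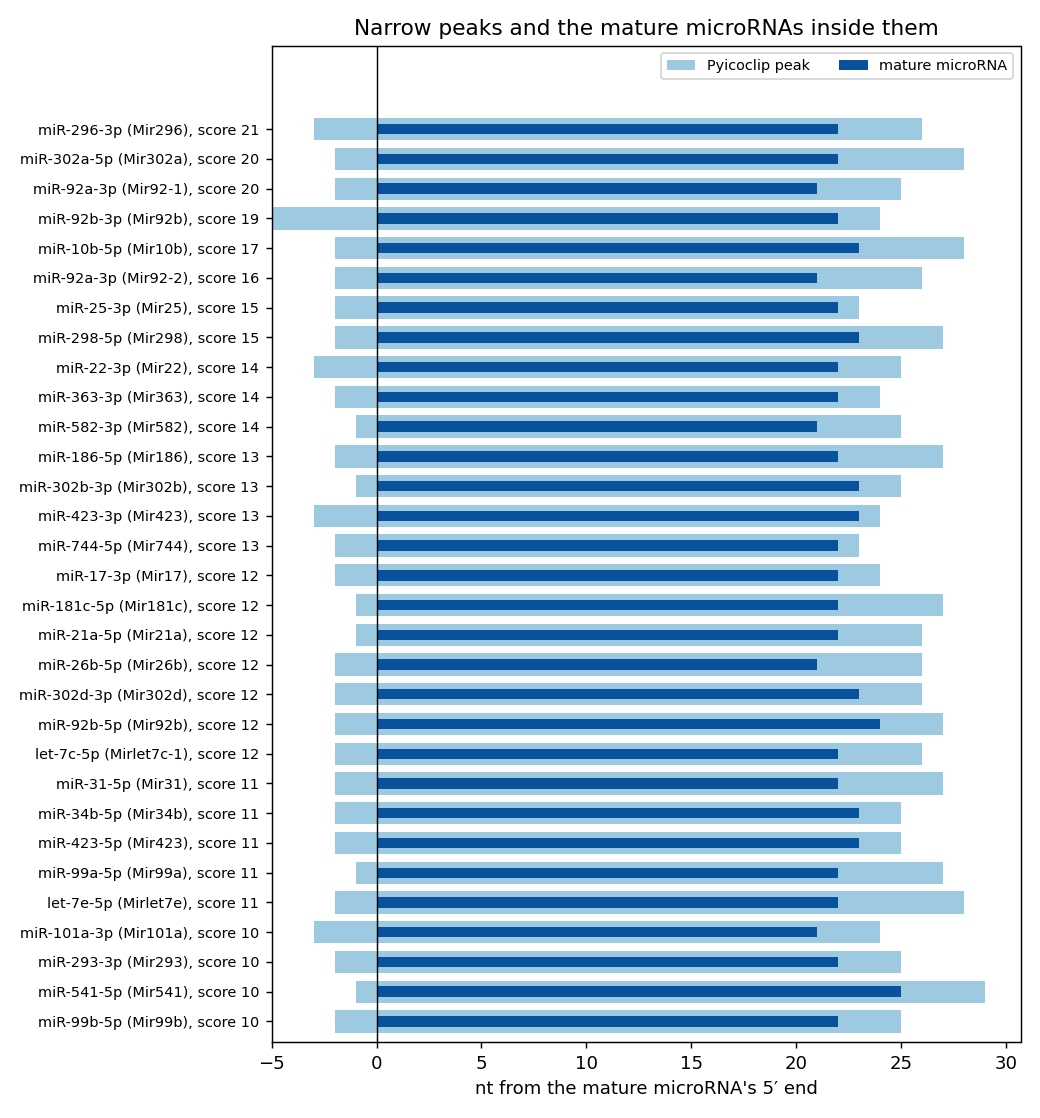
Narrow Pyicoclip peaks (light bars) drawn against the mature microRNA inside each (dark bars), in nt from the 5′ end of the mature sequence, for the 31 peaks with a RefSeq mature sequence, ordered by score. Each light bar starts 1 to 5 nt before and ends 1 to 6 nt after the dark one.

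By class, protein-coding spans held 557 members, or 82.2% (79.1 to 84.9), long non-coding genes 75, microRNA genes 37, other small RNA genes 3 and other gene types 6. Ribosomal RNA genes held none, and the upper Wilson bound of that share is 0.563%. Among the genes themselves, 0.965% of long non-coding and 0.104% of other small RNA genes held a narrow peak, beside 2.49% of protein-coding ones. The 793 wider in-gene peaks served for comparison, in two-sided Fisher's exact tests whose p-values were adjusted over the 6 classes after Benjamini and Hochberg. Long non-coding genes held a larger share of the narrow peaks, 11.1% (8.92 to 13.6) against 4.29% (3.08 to 5.93; exact test, adjusted p = 2.25e-06). Other small RNA genes held a smaller one, 0.442% (0.151 to 1.29) against 6.43% (4.93 to 8.36; exact test, adjusted p = 3.09e-10). Ribosomal RNA was lower too, at 0 against 1.39% (exact test, adjusted p = 0.00214). The protein-coding share did not differ detectably from the 83.6% of wider peaks (exact test, adjusted p = 0.487).

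MicroRNA genes took 5.46% of narrow peaks (3.98 to 7.43) and 2.27% of wider ones (1.44 to 3.56; Fisher's exact test, adjusted p = 0.00214). That order rests on the width limit. With a limit of 25 nt, the microRNA share was 0.485% of 412 narrow peaks, while 53 of the 1059 wider ones were in microRNA genes. With peaks in exactly 1 gene span it was 1.67% against 0.565% (exact test, adjusted p = 0.0933). The 3 other small RNA members were in tRNA genes, n-TVcac2 with a score of 12, n-TKctt19 with 11 and n-TSgct8 with 10. Since many tRNA genes are nearly the same in sequence, which copy gave these reads is not certain. Long non-coding members were led by Gm40684 and Gm46269 with 19, Gm20016 and Gm38439 with 18, and Gm42186, Gm52719 and Gm27246 with 16, then 9330198N18Rik, Gm15952, Gm30209, Gm39338 and AW822252 with 15. These genes have no role known well enough to state here.

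Protein-coding members lay on both strands of their genes in nearly equal numbers. Gene strands were taken from the RefSeq promoter and microRNA tables, which give one for 17492 of 21887 protein-coding genes. Of the 396 stranded members that lay in exactly 1 span, a protein-coding one of known strand, 203 were on the strand of the gene and 193 on the other. The sense share was 51.3% (46.4 to 56.1), which did not differ detectably from 50% by an exact binomial test (p = 0.651). Of 429 wider peaks, 381 were sense, 88.8% (85.5 to 91.5; Fisher's exact test, two-sided, p = 1.49e-33 against the narrow peaks). Over all gene classes the sense share was 51.5% of 456 narrow peaks (47.0 to 56.1) and 87.5% of 455 wider ones (84.1 to 90.2; Fisher's exact test, p = 3.04e-33). With peaks in several spans added, and counted as sense if any of the genes was on their strand, the share was 56.6% of 528 narrow peaks (exact binomial p = 0.00264 against 50%) and 86.9% of 521 wider ones.

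MicroRNA members lay on 1 strand. All 35 whose gene strand was in the tables lay on the strand of the microRNA (90.1 to 100), whatever other genes they overlapped. Counted like the protein-coding members, in exactly 1 span, they were 10 of 10 (72.2 to 100). Long non-coding members were sense in 22 of 50 (44.0%, 31.2 to 57.7).

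Splits of the protein-coding members by other list, score and gene strand gave sense shares of 48.4% to 57.4%. The share was 50.0% of 328 members that overlapped a Piranha peak and 57.4% of 68 that did not (45.5 to 68.4). It was 49.6% of the 131 at a score of 10 and 48.4% of the 64 that scored over 14. In genes that also held a PIPE-CLIP cluster it was 51.7% of 58, and in the others 51.2% of 338. Genes on the plus strand had 50.8% and genes on the minus strand 51.7%. By width, it lay between 47.2% and 53.9% in the 4 bands from 18 to 28 nt. In the 27 members of 29 or 30 nt it was 70.4% (51.5 to 84.1). Just above the rule's limit it was 61.8% of 34 peaks of 31 to 40 nt (45.0 to 76.1) and 63.2% of 19 peaks of 41 to 60 nt (41.0 to 80.9), and the values over 90% began above 60 nt. The differences between neighbouring bands were not tested.

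**Figure D2:**
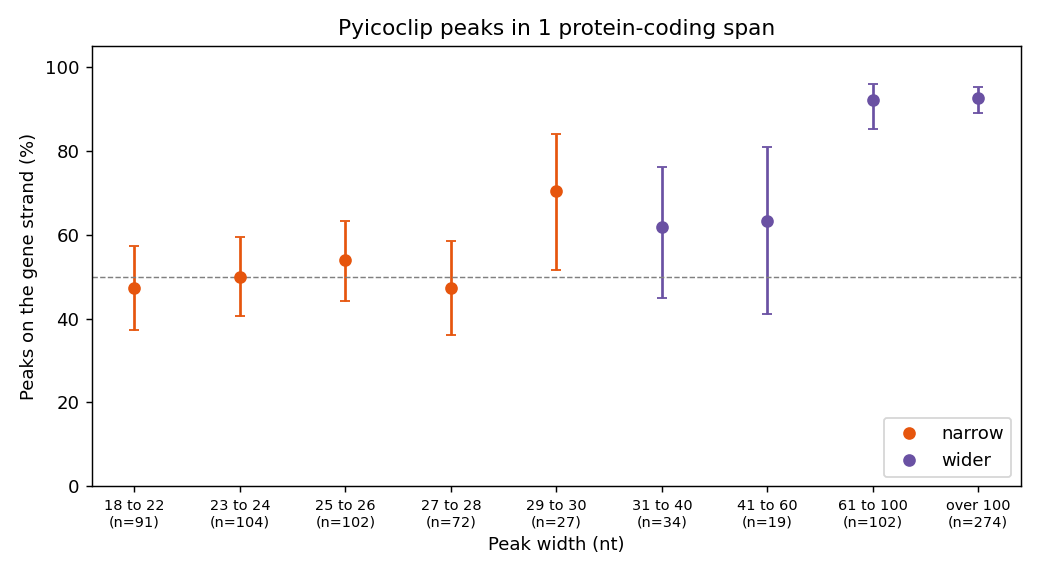
Share of Pyicoclip peaks on the strand of the gene (%), by peak width in nt, for stranded peaks in exactly 1 span, a protein-coding one of known strand; bars are 95% Wilson intervals and the dashed line marks 50%. The 4 bands from 18 to 28 nt lie between 47.2% and 53.9%, and both bands above 60 nt lie over 90%.

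Along protein-coding genes the members had no pile-up at the end as large as that of wider peaks. With 1 peak per gene, that of the highest score, 64 of 482 lay in the last 10% of the span, 13.3% (10.5 to 16.6), and 79 lay in the first 10%, 16.4% (13.4 to 20.0). The 2 ends did not differ detectably from each other by an exact binomial test (p = 0.242). An even spread would put 10% in each of these parts. Both intervals lie above 10%, and the shares were not tested against it. For wider peaks 223 of 400 lay in the last 10%, 55.8% (50.9 to 60.5; Fisher's exact test, two-sided, p = 4.00e-42 against the narrow peaks). Position was read along the strand of the gene for 384 of the 482 genes, and along that of the peak for the others. Along the peak strand, an antisense peak is read from the wrong end of the gene. In genes of known strand alone, 50 of 384 narrow peaks lay in the last 10% (13.0%) and 58 in the first. Of the wider peaks in such genes, 172 of 329 lay in the last 10% (52.3%). A low share of narrow peaks in the last part was already known from an earlier reading of these lists along the peak strand. The gene strand adds the split by sense. Of the 203 sense members 9.36% lay in the last part (6.07 to 14.2), and 29 of the 193 antisense members did (10.7% to 20.7%). Wider sense peaks had 61.2% there (56.2 to 65.9) and the 48 wider antisense peaks 10.4% (4.53 to 22.2). Within 3000 nt of the gene end lay 9 of the 203 sense members, 4.43% (2.35 to 8.21), beside 60.9% of the wider sense peaks.

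**Figure D3:**
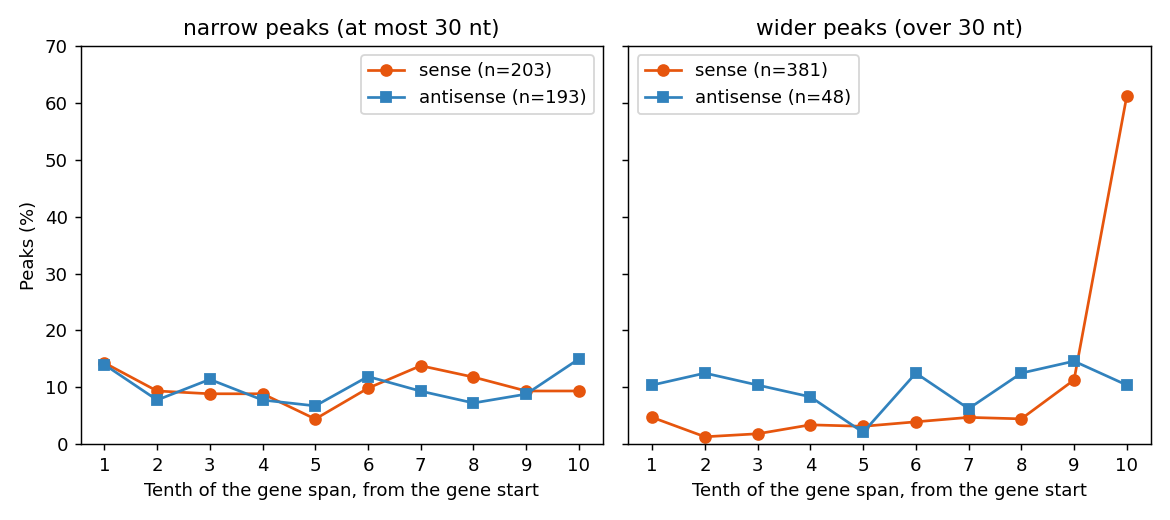
Share of peaks (%) in each of 10 equal parts of the gene span, from the gene start, for narrow (left) and wider (right) Pyicoclip peaks in exactly 1 protein-coding span, split into sense and antisense. Narrow sense peaks go from 4.43% to 14.3% over the parts, while 61.2% of wider sense peaks lie in the last.

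Among the 15 highest-scoring members, the top one, with 26, lay in Cadm1, a cell adhesion gene. Tph2, which encodes the enzyme that limits serotonin synthesis in neurons, had 25 at chr10:115092151-115092178, on the strand opposite to the gene. Tcf20 had 25 with no strand given. Tafa1, which encodes a small secreted protein, had 24 and Ppp4r3a, a regulatory subunit of a phosphatase, had 23, both on the strand of the gene. Mta2, a subunit of the NuRD chromatin complex, had an antisense peak of 22 at chr19:8941956-8941980, 0.467% along its span, where the span of Gm10353 also lies.

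Pdpn, the gene of podoplanin, and Adgrl1, of latrophilin, both scored 21 and were antisense, and the Adgrl1 peak also lay in Gm10644. Trmt44, a tRNA methyltransferase gene, and Rufy3 scored 20 and were antisense as well. The strand of Cadm1 was not in the tables used. Of the 12 protein-coding members among the 15, 8 had both strands known, 2 of them sense and 6 antisense, with Mta2 and Adgrl1 counted by the named gene. The other 3 of the 15 were Mir296, Mir92-1 and Mir302a. Of the 15, 14 overlapped a Piranha peak.

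Most genes held a single member. One narrow peak was found in 664 genes, 2 in 45, 3 in 2 and 4 in 2. The genes with 4, Larp7 and Gm51018, are those that overlap the miR-302 cluster. Hoatz had 3, of which 2 were the Mir34b and Mir34c peaks and the third, at chr9:51089913-51089936 with a score of 12, was on the plus strand, opposite to Hoatz. Ctnna2, which encodes alpha-N-catenin of neural cell junctions, had 3 members on the strand of the gene. They scored 12 at chr6:77317003-77317028, 10 at chr6:77346100-77346123 and 10 at chr6:77843218-77843239. In that order they lie 60.4%, 57.7% and 12.4% along a span of 76881637 to 77979815.

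Long genes held many of the members. The 544 protein-coding genes with a narrow peak were 2.49% of 21887, and their median span was 104 kb, beside 41.0 kb for the 471 genes with a wider peak and 17.2 kb for all. Per Mb of span, narrow peaks fell from 1.11 in genes of up to 10 kb (36 peaks) to 0.408 in genes over 300 kb (130 peaks), a ratio of 2.71. Wider peaks fell from 3.62 to 0.107, a ratio of 34.0, and PIPE-CLIP clusters from 10.3 to 0.483, a ratio of 21.2. The share of genes with a narrow peak rose with length, from 0.454% of the shortest to 19.6% of the longest. For wider peaks it went from 0.921% to 3.95%, with its highest value, 4.38%, at 100 to 300 kb. A peak in overlapping spans counts in each gene here, and the densities were not tested.

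**Figure D4:**
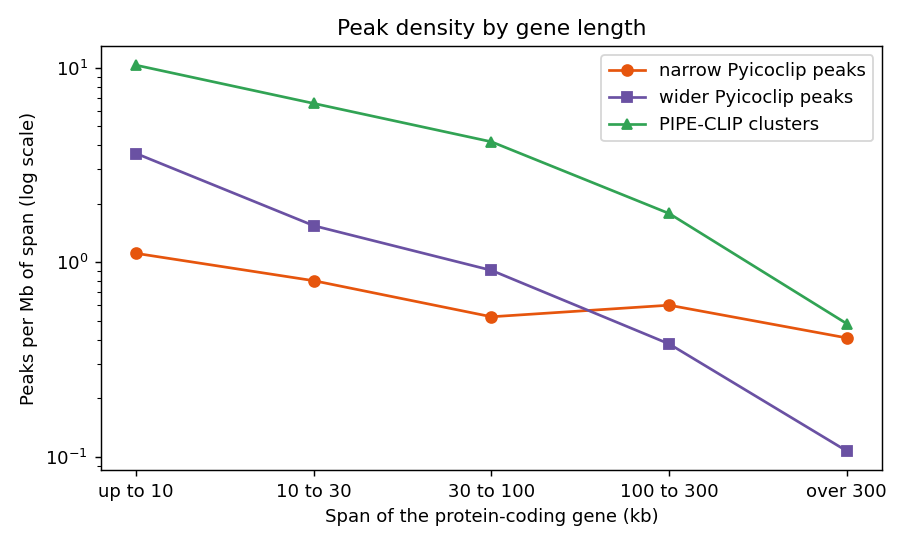
Peaks per Mb of protein-coding gene span (log scale) by the length of the span in kb, for narrow and wider Pyicoclip peaks and PIPE-CLIP clusters. The narrow peaks go from 1.11 to 0.408 per Mb, the wider ones from 3.62 to 0.107.

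Narrow and wider peaks were found together in 20 protein-coding genes. These were 3.68% of the genes with a narrow peak, beside 2.15% of all protein-coding genes that held a wider one. They were 4.25% of the genes with a wider peak, beside the 2.49% of all that held a narrow one. A further measure, chosen after the data were seen, was whether the gene held a PIPE-CLIP cluster anywhere in its span, as 7.10% of all protein-coding genes did. Of 524 genes with narrow peaks alone, 69 did, 13.2% (10.5 to 16.3). Of 451 genes with wider peaks alone, 331 did, 73.4% (69.1 to 77.3; Fisher's exact test, two-sided, p = 3.27e-86). Among genes with spans of 30 to 300 kb 45 of 301 and 182 of 252 did, beside 12.2% of all protein-coding genes of that length. For wider peaks the cluster is often the same site, since 66.8% of them overlapped one. The difference between these groups of genes is thus tied to the width that chose the members. The test cannot tell that from a difference between the genes.

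Overlap with the other lists was counted from 1 nt on the same strand. Piranha, which listed 1417 peaks on a grid of 20-nt bins, overlapped 568 of the 678 members, 83.8% (80.8 to 86.4). Over all Pyicoclip peaks the share was 63.5%, and for wider in-gene peaks it was 33.7% (30.5 to 37.0; Fisher's exact test, two-sided, adjusted over 6 comparisons, p = 1.59e-87). Since Piranha works on bins of 20 nt, the comparison with wider peaks can depend on the width that chose the members. No conclusion is drawn from that comparison. For narrow peaks outside genes the share was 88.9% (85.5 to 91.7; Fisher's exact test, adjusted p = 0.0289), a difference that missed the threshold under 5 of 9 alternative settings. By class it was 83.1% for protein-coding, 92.0% for long non-coding and 75.7% for microRNA members (59.9 to 86.6). These classes were not tested against each other.

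Where a member met Piranha, it met exactly 1 peak of that list, and the 2 scores were equal in 513 of 568 cases. The Piranha score was lower in 55 and higher in none. Tph2 had 25 in both lists, Tafa1 24, Mta2 22 and Rufy3 20. The Piranha value was far lower for Cadm1, with 12 beside 26, for Mir302a (5p), with 10 beside 20, and for Ppp4r3a, with 16 beside 23. Across the 568 pairs Pearson's r was 0.915, a description of sites that share their libraries.

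Whether a member met Piranha went with its place on the 20-nt grid. Each Piranha peak started at a multiple of 20, and in 541 of the 568 pairs (95.2%) it held the end of the member with the lower coordinate. Members whose lower end fell on places 1 to 11 of a bin overlapped Piranha in 379 of 381 cases, 99.5% (98.1 to 99.9). On places 12 to 15 the share was 85.6% of 132 (78.6 to 90.6), and on places 16 to 20 it was 46.1% of 165 (38.6 to 53.7). The places were grouped after the values were seen, so these shares are a description. The 110 members without Piranha had a median score of 11 and a median width of 26 nt, and the 568 with it 12 and 25 nt.

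**Figure D5:**
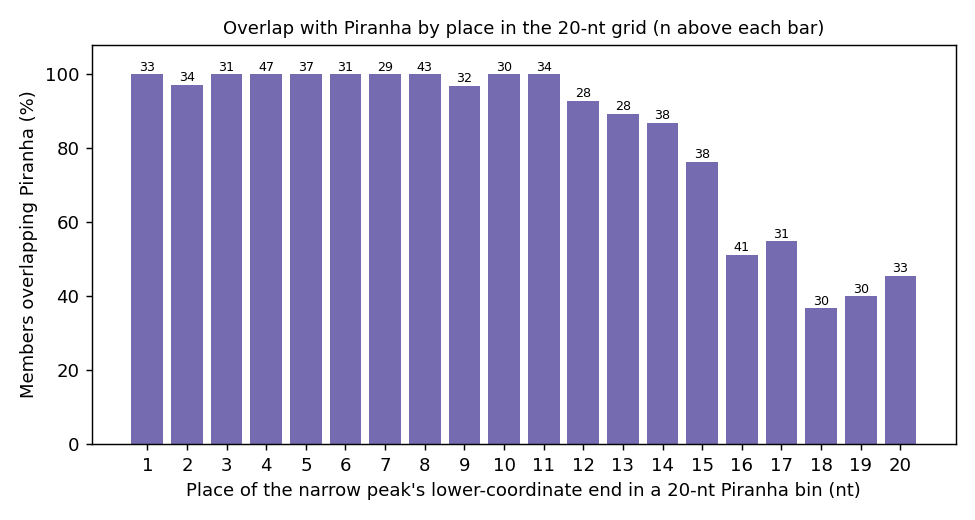
Share of members that overlap a Piranha peak (%), by the place (nt) of the member's lower-coordinate end within the 20-nt grid of Piranha, with the number of members above each bar. The bars stay above 96% on places 1 to 11 and lie between 36.7% and 54.8% on places 16 to 20.

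The narrowest PIPE-CLIP cluster is 30 nt, as wide as the widest members, so its overlap is tied to the width that chose them and is given with no test. PIPE-CLIP overlapped 1 member, 0.147% (0.0260 to 0.831), beside 66.8% of the wider in-gene peaks (63.5 to 70.0) and 30.7% of all Pyicoclip peaks. The single member was in Atoh8, a transcription factor gene, at chr6:72211254-72211283 on the strand of the gene. It scored 19 in Pyicoclip and Piranha and 10 in PIPE-CLIP.

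CIMS overlapped 13 members, 1.92% (1.12 to 3.25), beside 7.31% of wider in-gene peaks (5.70 to 9.34; Fisher's exact test, adjusted p = 2.08e-06) and 5.03% of all. With a required coverage of 50%, the order turned, to 1.92% against 1.26% (exact test, adjusted p = 0.600). The median width was 111 nt for wider in-gene peaks and 25 nt for members. A wider peak has more bases in which to meet a CIMS peak, but needs a longer one to be covered to 50%. Both comparisons are thus tied to the width that chose the members, and no conclusion is drawn from them. The members with CIMS were led by Tafa1, with 24 in Pyicoclip and 19 in CIMS, Trmt44 with 20 and 14, and Pde1c, a phosphodiesterase gene, with 19 and 16. Dpp10, the cation channel gene Trpv4 and Mir92-2 had 16 in both lists, and Gm52719 had 16 and 15. Zbtb20 had 15 in both, Upf2, a factor of nonsense-mediated decay, had 15 and 13, and Actn2 had 13 in both. Polr2m, Tulp4 and Cacna1c completed the 13. Of the 11 protein-coding members with CIMS, 4 were sense and 7 antisense.

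Apart from the neural list below, each gene list gave 1 gene with a narrow peak or none. Ago4, a paralogue of AGO2, was the 1 of 20 RNA silencing effectors with a narrow peak, at chr4:126512429-126512451, sense, with a score of 11. Chromatin regulators had 1 of 25, Hdac2, a histone deacetylase gene, with 10. Translation genes had 1 of 18, the helicase gene Eif4a1, with 10, and cell cycle genes 1 of 19, Ccng2, whose peak of 10 was antisense. Splicing factors had 0 of 17. The protein-coding background was 2.49%. Wider Pyicoclip peaks were in 6, 8, 9, 7 and 0 members of these lists in the same order, beside 2.15% of all protein-coding genes. The lists were written with earlier results of these data known, so no conclusion is drawn from these counts.

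Neural adhesion and synapse genes had 5 of 18 members with a narrow peak, and 1 with a wider one. The median span of the list was 1330 kb. Of all protein-coding genes over 300 kb, 19.6% held a narrow peak and 3.95% a wider one. Narrow peaks came to 0.305 per Mb in the list, 0.408 in genes over 300 kb and 0.561 over all protein-coding genes. Besides Ctnna2, the list members with a narrow peak included Nrxn3, a presynaptic receptor gene, with 12 (sense). Trpm3, a cation channel gene, had 11 (sense) and 10 (antisense). The others were Ptprd, a receptor phosphatase gene, with 12, and Csmd1 with 10. The last 2 have no gene strand in the tables used.

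Markers of pluripotent cells had 4 of 26 matched entries with a narrow peak, Mir302a, Mir302b, Mir302d and Mir293, all microRNAs. The list names Mir292a, and the Mir292 peak with a score of 18 was not counted under that name. Wider peaks were in 2 of the matched entries. Narrow peaks were in 2.85% of all microRNA genes and 2.49% of protein-coding ones. Klf4, a pluripotency factor outside the list and named after its value was seen, had a sense peak of 19 at chr4:55531391-55531418. Neural markers had 0 of 8, muscle markers 0 of 8 and endoderm markers 0 of 5. A peak list does not measure expression, so a missing peak says nothing about the level of a gene.

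Gene starts were looked at next. Of the 678, 14 lay wholly within a RefSeq promoter window, 250 bases before to 50 after a gene start, and 3 of 793 wider in-gene peaks did. A wider peak fits in such a window less easily, so these counts are tied to width. The share that the length of the windows would give was not computed. The 14 include both Mir92b peaks, in the window of LOC115489723. The RefSeq sequences of these windows are shown for the 6 stranded protein-coding members that lie in the window of their own gene, on the strand of the peak, 5′ to 3′, with the bases also covered by the Piranha peak in capitals.
Brd7, chr8:88362211-88362232, minus strand, sense, score 15: cagaccgcatccCGTCCGCTCG
Itsn2, chr12:4592833-4592857, plus strand, sense, score 13: CGGAGCTTcgggacctggcgggagg
Tlr2, chr3:83841804-83841826, plus strand, antisense, score 13: CCTCCCAGCTCGCCTTTtggctg
Sestd1, chr2:77280585-77280607, minus strand, sense, score 11: ccggcgtCCCCGCGTCGTCCCCA
Igfbp3, chr11:7214029-7214051, plus strand, antisense, score 11: CCCGCGCCTCCCgacgaagcggg
Arl2bp, chr8:94666925-94666948, plus strand, sense, score 10: CTCGACCTCGGCCTGCggacgtcc
Their G and C content ran from 65.2% in Tlr2 to 82.6% in Sestd1 and Igfbp3. Over all 14 it was between 48.0% and 95.8%. Brd7 encodes a bromodomain protein of a SWI/SNF complex, Tlr2 a receptor of innate immunity and Igfbp3 a binding protein of insulin-like growth factors. The midpoints of these peaks lie 4 to 207 bases before the start that the RefSeq table gives, with that of Sestd1 the nearest, and inside the gene span, which takes in other transcripts.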

How the data were processed

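AGO2 HITS-CLIP was done on 3 P19 libraries of 1 group. Per the labels' protocols, inserts were size-selected and sequenced on an Ion Proton. Per the submitters' processing notes, cutadapt, Novoalign and mm10 were used. The sources used here do not give peak caller settings or how libraries were pooled. The authors deposited 4 peak lists with a score per peak, used only within lists or side by side. Depth is unknown. Gene spans came from RefSeq on GRCm38.p6, and gene strands from its promoter and microRNA tables. Coordinates count from 1. Each peak took 1 class, in the order ribosomal, microRNA, other small RNA, protein-coding, long non-coding, other. Shares have 95% Wilson intervals. Tests treat peaks as independent, although 1 gene can hold several. A check on simulated data was run, but its outcome is not given here. No conclusion about the effect of several peaks in 1 gene is drawn from that check.

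Members, lists and tests were chosen with earlier results of these data known. Genes were named by rule: the 15 highest scores, genes with at least 3 members, small RNA and long non-coding genes by score, list members, those in most lists and the microRNAs. The rule took 20 microRNAs by score and 10 genes in most lists, and the rest of both groups was added later. Some genes that the rule takes are not reported here. Others are marked as chosen later, or illustrate promoters and score pairs. Exons and the genome sequence were not used here, so the planned exon share and the seed search over all members were not run. Software was Python 3.11.15, numpy 2.4.6, pandas 2.3.3, scipy 1.17.1 and matplotlib 3.10.9.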

Additional observations from a re-analysis of the deposited data

How the results depend on the processing

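Of 155 alternative values for 18 results, 137 kept their direction and their side of 0.05 (for the count of members, stayed within 1.5 times). The count was 412 with a limit of 25 nt, 332 for scores above the median and 299 with the gene on the strand of the peak. With the 25-nt limit, microRNA (0.485%), the protein-coding share (86.2% against 81.7%) and the sense share against 50% (49.0%) turned direction, and ribosomal RNA (0 against 1.04%, exact test, adjusted p = 0.0535) lost its call. The difference in Piranha overlap from narrow peaks outside genes lost its call with that limit (87.4%), with better scores (87.7%), without small RNA genes (84.2%), with 50% coverage (47.2%) and with 1 peak per gene (84.9%). The CIMS difference, which is tied to peak width, turned with 50% coverage (1.92% against 1.26%). The protein-coding share turned with 1 peak per gene (81.7%) and passed the threshold without small RNA genes (87.3% against 91.6%, exact test, adjusted p = 0.0169). Other gene types passed it with 1 peak per gene (0.936% against 2.69%), as did the sense share against 50% with peaks in any span (56.6%). MicroRNA lost its call for peaks in exactly 1 span (1.67%). The sense share, the last part of the span and the long non-coding share against wider peaks kept their calls under each alternative run. Comparing with peaks over 60 nt, genes of known strand alone and spans of 30 to 300 kb were chosen after seeing the data. The cause of these changes was not tested. No library could be left out, since the lists cover all 3 together. No paired analysis was possible because the 3 libraries form 1 group and the lists give no value per library.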

Other observations

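Seed letters were looked for in the 14 members within promoter windows, on both strands. AGCACTT or AAGTGCT (miR-302b-3p and miR-294-3p), GCACTTT or AAAGTGC (miR-17-5p) and CTACCTC or GAGGTAG (let-7c-5p) were in 0 of the 14. They were in 0.280%, 0.192% and 0.247% of the middle 25 bases of 32851 promoter windows. GTGCAAT or ATTGCAC (miR-92a-3p) was in 1 of the 14, the Mir92b peak, where it is the seed of the microRNA itself, and in 0.103% of the windows. A sequence shared by 2 of these motifs counts for both. With 14 members and window shares this low, 0 matches cannot show a lack of them, and no conclusion is drawn.

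One pair of members overlapped each other. Both lay at the start of Ttc28, without a strand, with 18 over 30 nt and 13 over 28 nt.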
